A study of Homo sapiens with 8 samples.

Results

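The family of miR-130, miR-301 and miR-454 is a set of microRNAs, short RNAs that guide Argonaute proteins to messenger RNAs. Its 3p arms share 1 seed, the bases 2 to 8 that do most of the pairing with a target. Entries of the deposited table were taken as members when their name was miR-130a, miR-130b, miR-301a, miR-301b or miR-454, with or without an arm. This gave 5 of the 2867 entries: miR-130a-3p, miR-301b-3p and miR-454-3p from the 3p arms, and miR-130b-5p and miR-301a-5p from the 5p arms. Small RNA was sequenced from HEK293, an established human embryonic kidney cell line, 48 h after transfection with 100 nM of an ASO, an antisense oligonucleotide made to pair with 1 RNA by its sequence. The name of each library carries miR-31, and the stated question was whether the ASO had effects beyond its target. Each group had 4 libraries, and the control group, labelled NoASO, received no ASO (0 nM). All 8 libraries came from the same line with no other treatment named, and no group received an unrelated ASO. The titles do not say whether controls were mock-transfected. Effects of this ASO, of any ASO and of transfection itself therefore cannot be told apart.

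As background, a microRNA hairpin is cut by Drosha and then Dicer, and of the duplex that results 1 strand is usually kept by Argonaute while the other is degraded. The family is known for repressing regulators of lipid handling, among them PPARG and ABCA1. miR-130a was described in endothelial cells, where it represses HOXA5 and MEOX2, and miR-301a is raised in many tumours. The 5p arms have seeds of their own and are not expected to share those targets.

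The sequences are shown to separate the members by seed, since the 3p and 5p members carry different seeds. RefSeq (GRCh38.p14) gave mature sequences for 4 of the 5 members, printed 5′ to 3′ with bases 2 to 8 in capitals.
miR-454-3p: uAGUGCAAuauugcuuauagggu
miR-301b-3p: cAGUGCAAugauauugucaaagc
miR-130b-5p: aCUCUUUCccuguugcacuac
miR-301a-5p: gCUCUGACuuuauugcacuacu

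miR-454-3p and miR-301b-3p had the seed AGUGCAA, although their first base and their 3′ ends differed. Of 2370 mature microRNA names in the RefSeq table, 6 (0.253%) had this seed: miR-130b-3p, miR-301a-3p, miR-301b-3p, miR-3666, miR-4295 and miR-454-3p. miR-130a-3p is named only and is not counted there. The 5p members shared neither that seed nor a seed with each other. Both held UUGCACU, the reverse complement of the family seed, further along, as arms that face each other in a hairpin can. That string, searched on the RNA strand as given, was in 8 of the 2370 sequences (0.338%). The hairpins of both 5p members are printed next to show this, with the arm that the table lists in capitals. The family seed stands in lower case in the other arm.
MIR130B: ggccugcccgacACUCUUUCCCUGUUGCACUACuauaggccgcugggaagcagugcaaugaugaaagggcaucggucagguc
MIR301A: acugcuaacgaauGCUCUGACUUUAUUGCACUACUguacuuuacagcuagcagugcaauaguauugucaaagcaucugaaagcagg

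The members come from 3 loci (GRCh38, GENCODE 29). MIR454 (chr17:59137758-59137872) and MIR301A (chr17:59151136-59151221) lie 13263 bases apart on the minus strand, in introns of SKA2, which encodes a kinetochore protein. MIR301B (chr22:21652981-21653058) and MIR130B (chr22:21653304-21653385) lie 245 bases apart on the plus strand, within the noncoding gene AP000553.1. There MIR301B is intronic and MIR130B overlaps an exon. MIR130A (chr11:57641198-57641286) lies alone, also on the plus strand, and is intronic in the noncoding gene AP000662.1. Each hairpin was represented by 1 arm among the entries analysed, and the opposite arms were not analysed here. Whether an entry holds reads of its named arm alone could not be told from the deposited counts.

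Total counts ran from 8168828 to 11677123 per library. Levels are given as CPM, counts scaled to a common library size after TMM, which adjusts each library's total by a trimmed mean of its ratios to the others. The targeted miR-31-5p ranged from 637 to 1018 CPM with ASO and from 350 to 1056 CPM in controls, so it did not separate the groups (log2 fold change 0.19, edgeR adjusted p = 0.851) and gave no check of the labels. Control library 1 stood apart from the rest. It was the highest or the lowest of the 8 libraries in 53.7% of the 745 entries tested, against 13.2% to 34.2% for each other library, and results that rest on it are given with and without it. The controls also ran in the order of their numbers in miR-454-3p, miR-301b-3p and miR-130b-5p, but not in miR-301a-5p or miR-130a-3p. Leaving out control library 1 does not remove that order, and its cause was not tested. HEK293 has no microRNA that defines it. Of markers of other cell types, 2 of the 6 blood entries were analysed and their sum was at most 0.899 CPM in any library. The endothelial marker miR-126-3p ran from 833 to 901 CPM with ASO and from 819 to 944 CPM in controls, and the neural marker miR-9-5p from 3089 to 3467 and from 3418 to 3764 CPM. The sum of the 3 muscle markers ran from 5.34 to 9.26 CPM with ASO and from 5.13 to 7.15 CPM in controls, and the liver marker miR-122-5p from 24.9 to 40.6 and from 10.1 to 14.9 CPM. Their part in the results was not tested.

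All 5 members were above 0 in all 8 libraries and passed the filter for testing, and none had the same counts as another entry. In each of the 8 libraries the order from high to low was miR-130b-5p, miR-454-3p, miR-301a-5p, miR-130a-3p and miR-301b-3p. Over the 8 libraries the means were 1253 ± 153, 491 ± 113, 127 ± 13.8, 25.8 ± 2.35 and 20.3 ± 1.80 CPM (SD, n = 8). These corresponded to ranks 76, 104, 151, 248 and 274 among the 903 known microRNAs. The ranges of the first 3 did not overlap one another. Those of miR-130a-3p and miR-301b-3p did, and in ASO library 4 they rested on 238 and 228 counts, with Wilson 95% intervals of 20.8 to 26.8 and 19.9 to 25.7 CPM before TMM scaling. Adapter ligation and PCR favour some sequences, so this order of counts, which are not divided by length, need not be the order of molecules in the cell.

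**Figure D1:**
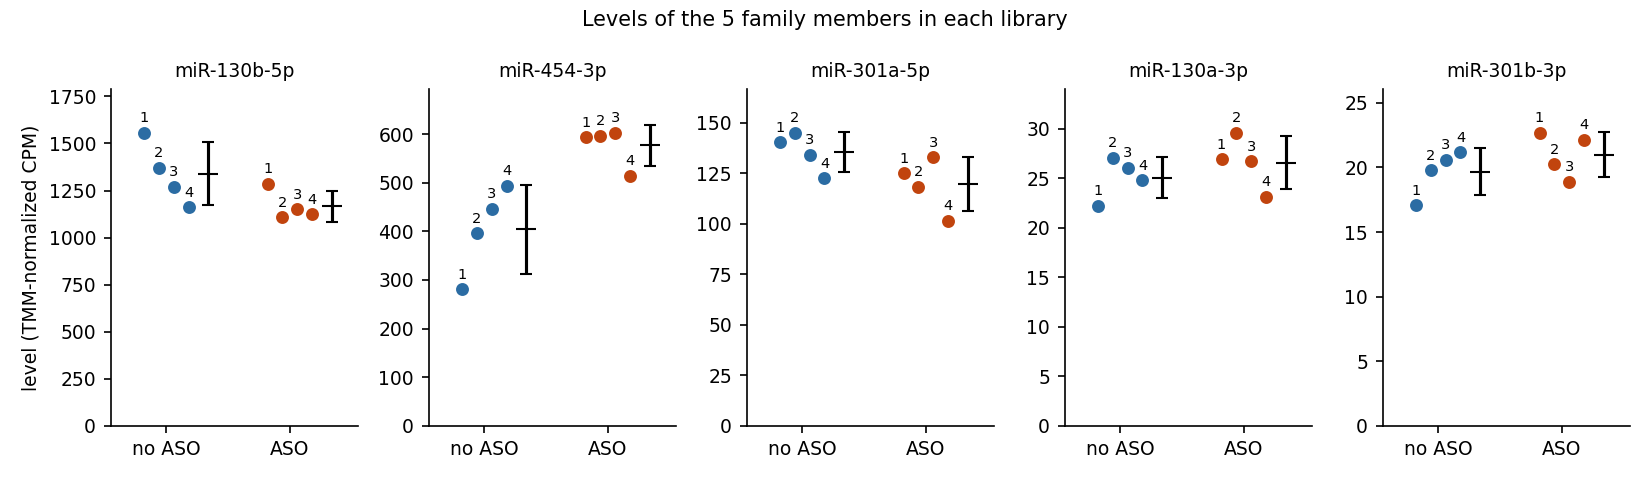
Level of each member (TMM-normalized CPM, linear axes from 0) in the 4 control and 4 ASO libraries. Points are libraries with their label number, and the bar is the mean ± SD. In miR-454-3p all ASO libraries lay above all controls, and in the other members the groups overlapped.

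miR-454-3p, the most abundant carrier of the family seed analysed, had the largest log2 fold change of the 5 members. With ASO it stood at 594, 597, 603 and 515 CPM in libraries 1 to 4, which rested on 5786, 7071, 6703 and 5302 counts. The controls, in the same order, held 281, 396, 447 and 494 CPM, which rested on 2833, 3703, 3707 and 5600 counts. All 4 ASO libraries lay above all 4 controls, with ASO library 4 close to control library 4 and control library 1 far below the rest. Groups that did not overlap with ASO higher were found in 23 of the 745 entries tested (3.09%). The means were 577 ± 41.6 CPM with ASO and 405 ± 91.6 CPM in controls (SD, n = 4 each), and 446 ± 49.2 CPM in the 3 controls other than library 1. The spread between controls was far wider than counting error, since the lowest count had a Wilson 95% interval of 260 to 280 CPM before TMM scaling.

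In edgeR's quasi-likelihood test the difference in miR-454-3p did not pass the threshold over all entries. The log2 fold change was 0.51 with an SE of 0.17 and an adjusted p of 0.402. Its 95% interval was 0.12 to 0.90, or 1.09-fold to 1.87-fold around a fold of 1.43. Its unadjusted p of 0.0165 ranked 29 among the 745 entries, of which 78 (10.5%) had an unadjusted p under 0.05. DESeq2, run as an alternative on the same counts, called it higher (log2 fold change 0.51, adjusted p = 0.0420). It gave an adjusted p for 422 entries and called 9 of them higher (2.13%). Over all alternatives to the edgeR test the adjusted p of miR-454-3p ran from 0.0420 to 0.705. Without control library 1 the log2 fold change was 0.39 (edgeR adjusted p = 0.470). DESeq2 was run on all 8 libraries only, so its call is not given without control library 1.

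The other 3p members differed little between groups. miR-301b-3p, whose gene sits beside MIR130B, held 22.7, 20.3, 18.9 and 22.2 CPM across ASO libraries 1 to 4. The controls, in the same order, held 17.1, 19.8, 20.6 and 21.2 CPM. The groups overlapped, with control library 1 the lowest of all. The means were 21.0 ± 1.74 CPM with ASO and 19.7 ± 1.82 CPM in controls (SD, n = 4), and the fold was 1.07 (95% interval 0.899 to 1.27), a log2 fold change of 0.09 (edgeR adjusted p = 0.764). Without control library 1 the log2 fold change was 0.047.

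miR-130a-3p, known from endothelium, held 26.9, 29.6, 26.7 and 23.1 CPM across ASO libraries 1 to 4. Controls 1 to 4 held 22.2, 27.1, 26.0 and 24.8 CPM. Here too the groups overlapped and control library 1 was the lowest. The means were 26.6 ± 2.64 CPM with ASO and 25.0 ± 2.08 CPM in controls (SD, n = 4), and the fold was 1.06 (95% interval 0.893 to 1.26), a log2 fold change of 0.09 (edgeR adjusted p = 0.796). Its log2 fold change was 0.031 without ASO library 2 and 0.048 without control library 1. miR-130a-3p and miR-301b-3p rested on 171 to 350 counts per library. Their SEs of 0.11 were close to the 0.10 of miR-130b-5p, which had far more counts.

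Both 5p members had lower means with ASO, and neither passed the threshold. miR-130b-5p held 1287, 1107, 1150 and 1123 CPM across ASO libraries 1 to 4. Controls 1 to 4 held 1556, 1372, 1269 and 1161 CPM. Control library 1 was the highest of all 8 here, ASO library 1 exceeded control libraries 3 and 4, and the groups overlapped. The means were 1167 ± 82.1 CPM with ASO and 1340 ± 168 CPM in controls (SD, n = 4), a fold of 0.871 (95% interval 0.742 to 1.02). The log2 fold change was −0.20 with an SE of 0.10 (edgeR adjusted p = 0.453). Without control library 1 the log2 fold change was −0.10, and it was −0.26 without control library 4.

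miR-301a-5p, which like miR-454-3p comes from an intron of SKA2, held 125, 118, 133 and 102 CPM across ASO libraries 1 to 4. Controls 1 to 4 held 140, 145, 134 and 122 CPM. The groups overlapped through ASO libraries 1 and 3 and control library 4. The means were 119 ± 13.3 CPM with ASO and 135 ± 9.76 CPM in controls (SD, n = 4), a fold of 0.882 (95% interval 0.750 to 1.04). The log2 fold change was −0.18 with an SE of 0.10 (edgeR adjusted p = 0.477). Without ASO library 4, the lowest, the log2 fold change was −0.12.

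**Figure D2:**
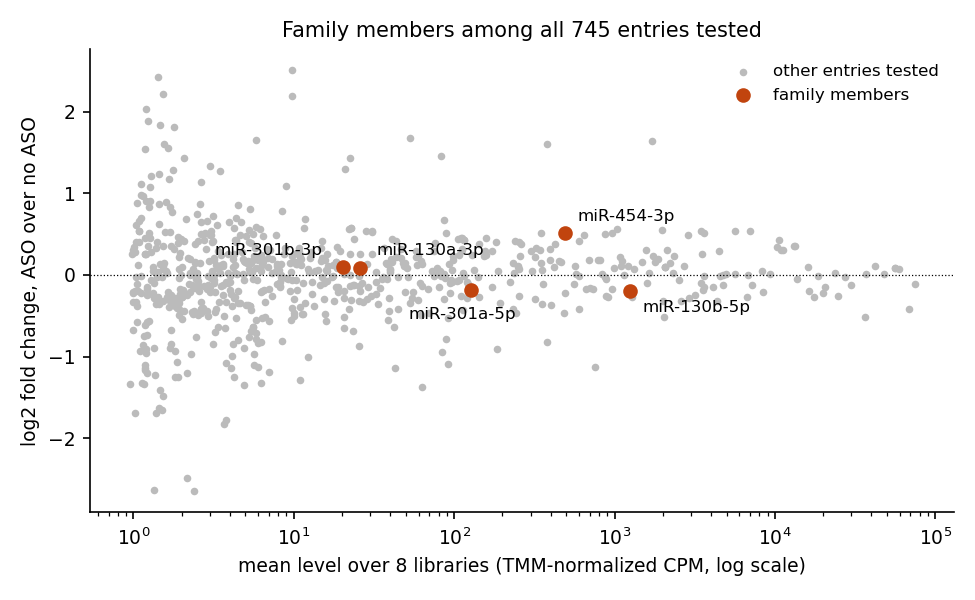
Log2 fold change of ASO over controls against mean level (TMM-normalized CPM, log axis) for the 745 entries tested, with the 5 members in colour. The members fell between −0.20 and 0.51, inside the cloud of the other entries.

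By edgeR's quasi-likelihood test 0 of the 5 members passed the threshold in either direction, where 1 of the 745 entries tested (0.134%) did. At an unadjusted p under 0.05 there was 1 member, miR-454-3p, and DESeq2 also called that 1. All 3 of the 3p members had a fold above 1 and both 5p members a fold below 1, against 51.7% of all entries tested above 1. The median log2 fold change was 0.09 over the 5 members and 0.01 over all entries. The direction of each member stayed the same in all 15 alternatives, which included median-ratio and upper-quartile scaling. With upper-quartile scaling the 3p members miR-301b-3p and miR-130a-3p came closest to no change among the scalings, at 0.051 and 0.045.

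**Figure D3:**
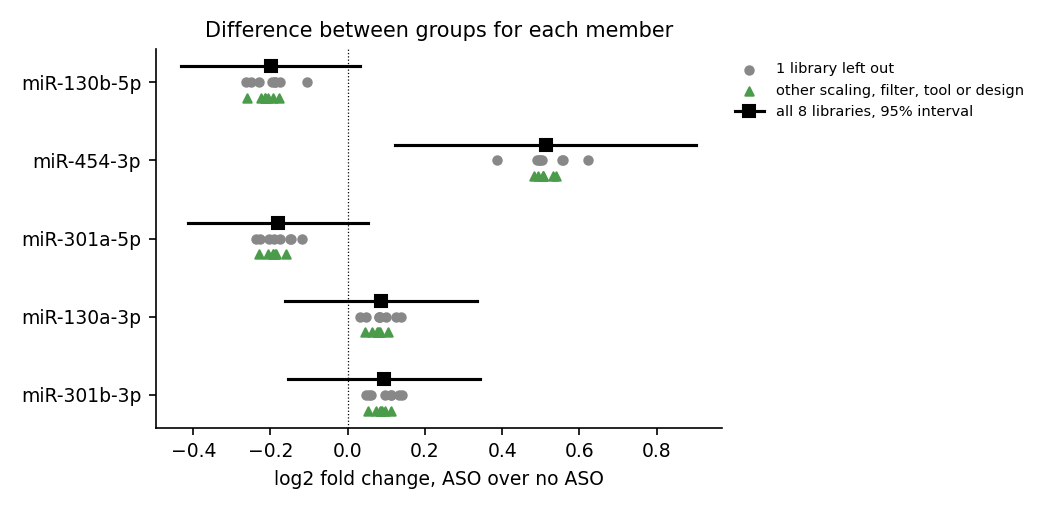
Log2 fold change of each member, ASO over controls. Squares with lines are the values and 95% intervals from all 8 libraries, grey points leave out 1 library each, and triangles are other scalings, filters, tools or designs. Only the interval of miR-454-3p, 0.12 to 0.90 before adjustment over entries, lies apart from 0.

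Summed over the 3p members, the level was 643, 647, 648 and 560 CPM across ASO libraries 1 to 4. Controls 1 to 4 held 320, 443, 494 and 540 CPM. miR-454-3p made up most of this sum, 92.4% ± 0.436 with ASO and 89.8% ± 1.61 in controls (SD, n = 4). The remainder was miR-130a-3p, at 4.25% ± 0.215 and 5.73% ± 1.02, and miR-301b-3p, at 3.38% ± 0.458 and 4.47% ± 0.611. The share of miR-454-3p was lowest in control library 1 (87.7%), so the sum largely repeats that member. The sum leaves out miR-130b-3p and miR-301a-3p, which have the same seed and were not analysed here. The shares are therefore not shares of the family seed in the cells. No test was made on the sum or the shares.

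The ratio of counts between members made from 1 locus varied between libraries. A ratio within a library needs no scaling, and 2 were compared, both chosen after the values were seen. The ratio of miR-454-3p to miR-301a-5p, from the SKA2 introns, was 4.75, 5.05, 4.54 and 5.07 across ASO libraries 1 to 4. Controls 1 to 4 gave 2.00, 2.73, 3.33 and 4.04, so every ASO library lay above every control. The level of miR-454-3p separated the groups in the same way, so the separation of the ratio is not a separate result. How often ratios of other pairs separate the groups is not given here, so whether this one is unusual cannot be told. The mean ratio was 4.85 ± 0.257 with ASO and 3.03 ± 0.866 in controls (SD, n = 4), and the difference in mean log2 ratio was 0.73, a fold of 1.65. An exact two-sided permutation test gave p = 0.0286, the smallest that 70 arrangements allow, and 0.0571 after Benjamini-Hochberg adjustment over the 2 ratios. Groups that do not overlap fix p at this smallest value. The ratio was also chosen after the values were seen, so no p of this ratio was read as a result. The difference was 0.54 without control library 1. With 1 library left out, the adjusted p of the exact permutation test was 0.114 without each ASO library in turn and 0.0571 without control library 1, 2 or 3. Without control library 4 the difference was 0.88 and the adjusted p 0.0286, where the p of the other ratio also dropped to the smallest value possible.

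At the chromosome 22 locus the ratio of miR-301b-3p to miR-130b-5p was 0.0176, 0.0183, 0.0164 and 0.0197 across ASO libraries 1 to 4. Controls 1 to 4 gave 0.0110, 0.0144, 0.0162 and 0.0182. The groups overlapped through control library 4, and control library 1 was again the lowest. The difference in mean log2 ratio was 0.29, a fold of 1.22 (exact two-sided permutation p = 0.114, adjusted p = 0.114). It was 0.15 without control library 1 (adjusted p = 0.200, exact permutation test) and 0.39 without control library 4, the 1 control that overlapped the ASO libraries. Leaving that control out fixes the p at the smallest the test allows (adjusted p = 0.0286), so it was not read as a result. In both loci the ratio set a 3p member over a 5p member, and the ratio in control library 1 was the lowest of 8. Both ratios rose in order from control library 1 to control library 4.

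**Figure D4:**
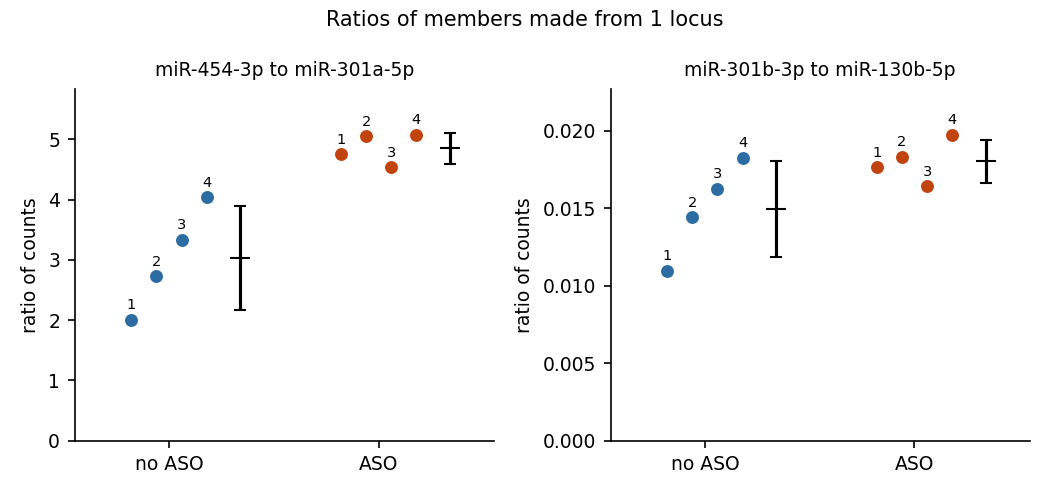
Ratio of counts between members made from 1 locus, by library, on linear axes from 0. Points are libraries with their label number, and bars are mean ± SD. For miR-454-3p to miR-301a-5p the ASO libraries run from 4.54 to 5.07, above all controls, and for miR-301b-3p to miR-130b-5p the groups overlap.

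The summed 3p level followed miR-454-3p, its main part, more closely than the other 3p members. Pearson's r with the summed 3p level, on log2(CPM + 1) over the 8 libraries, was 0.9999 for miR-454-3p, 0.67 for miR-301b-3p and 0.64 for miR-130a-3p. The latter pair of values fell to 0.11 and 0.28 over the 7 libraries other than control library 1. For the 5p members it was −0.86 for miR-130b-5p and −0.52 for miR-301a-5p over 8 libraries, and −0.63 and −0.41 without control library 1. Over the 6 libraries other than control libraries 1 and 2, r was −0.27 for miR-130b-5p and −0.0071 for miR-301a-5p. Over the same 6 it was −0.18 for miR-301b-3p and 0.57 for miR-130a-3p, so the negative r of the 5p members rested largely on those controls. These values are descriptions over libraries that share their groups and their scaling, and sums contain the 3p members themselves.

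The entries outside the family whose levels were most like the summed 3p level were miR-181a-5p (r = 0.985), miR-30c-5p (0.982), miR-3065-5p (0.981), miR-181b-5p (0.981) and miR-29a-3p (0.981), over 8 libraries. Of the 740 other entries tested, 67 (9.05%) had an r above 0.9. Leaving out control libraries 1 and 2, which lay farthest from the median of the sum, the 5 values ran from 0.886 for miR-30c-5p to 0.986 for miR-29a-3p over 6 libraries. None of the 5 passed the threshold between groups (log2 fold changes 0.26 to 0.54, edgeR adjusted p 0.402 to 0.445).

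**Figure D5:**
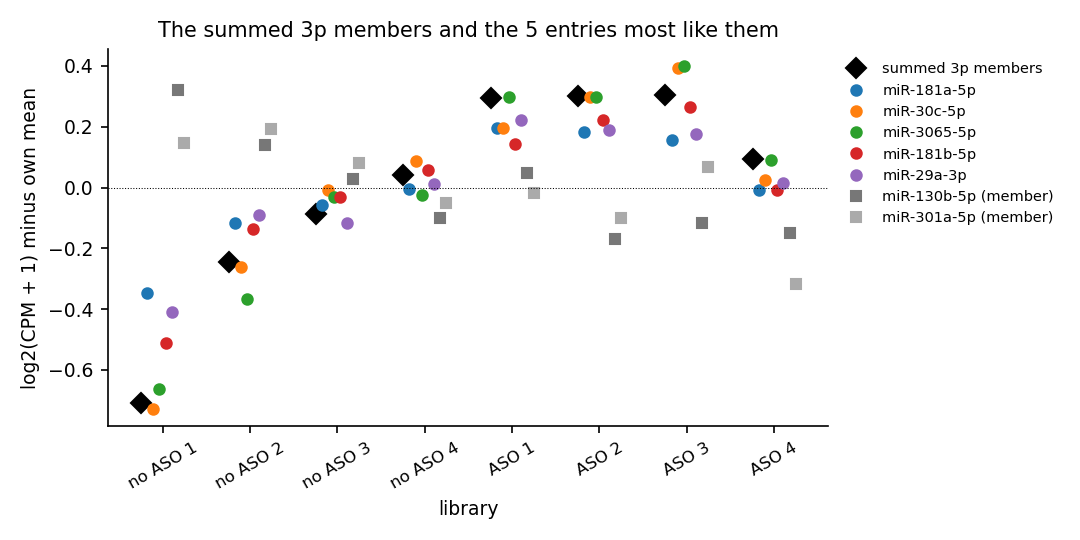
Level of the summed 3p members, of the 5 entries most like them and of both 5p members in each library, as log2(CPM + 1) minus the own mean over 8 libraries. Control library 1 holds the lowest point of the sum and of the 5 entries, where miR-130b-5p is at its highest.

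MicroRNAs outside the members with the family seed, or with a seed that overlaps it by a shift of 1 base, were also listed. The shift is shown by these RefSeq sequences, with bases 2 to 8 in capitals.
miR-148a-3p: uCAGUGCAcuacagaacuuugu
miR-19a-3p: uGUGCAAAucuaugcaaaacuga

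The list had 7 names, and miR-3666 and miR-4295, which have the family seed, were not among the entries analysed. The 6 entries analysed therefore had shifted seeds only, and miR-19b gave both miR-19b-1-3p and miR-19b-2-3p. Of these entries 4 were tested, and 0 of the 4 passed the threshold in edgeR. Of the 4, 3 had a fold above 1, and the median log2 fold change was 0.05, beside 0.01 over all entries. That median was −0.00093 with upper-quartile scaling, and ran from 0.014 (without ASO library 1) to 0.084 (without ASO library 4) with 1 library left out, with 0.018 without ASO library 3. miR-148a-3p, far more abundant than the family, had group means of 29879 ± 4220 (ASO) and 42565 ± 15165 CPM (controls, SD, n = 4), a log2 fold change of −0.51 (edgeR adjusted p = 0.445), or −0.23 without control library 1. miR-19b-2-3p of the miR-19 group had a log2 fold change of 0.45 (edgeR adjusted p = 0.464), or 0.27 without control library 1. miR-152-3p was at 0.08 and miR-148b-3p at 0.01, the latter turning to −0.03 with upper-quartile scaling and −0.01 with known microRNAs alone. miR-19a-3p was above 0 in 1 library (ASO library 3, 2143 counts) and miR-19b-1-3p in 2, control libraries 2 and 3. In these controls miR-19b-1-3p held 907 and 867 counts, beside 911 and 866 for miR-19b-2-3p, so the entries nearly repeated each other. RefSeq gives 1 mature sequence for both miR-19b genes, and how reads were given to each entry is uncertain. The values of 0 for miR-19a-3p and miR-19b-1-3p need not mean that these microRNAs were absent.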

How the data were processed

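Per the labels' protocols, total RNA was isolated with a Qiagen kit and small RNA libraries were prepared with a kit from NEB. bcl2fastq 2.20, Trimmomatic 0.30, edgeR 3.4.6 and GRCh38 are named in the submitters' processing notes, and which aligner, counter and annotation were used is not given in the sources used here. The authors deposited 1 table with a raw count per entry and library, and 8 columns headed TPM that equal CPM (within 0.223 CPM of values computed from the counts, with no division by length). The deposited length, another column, was used only in the closing section. Groups and library numbers came from the titles, and nothing says that each library had its own culture. The p-values therefore reflect the spread among these libraries, which may be technical.

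The members and lists were chosen with earlier results of these data known. Counts of 745 entries (539 known and 206 predicted microRNAs) with a mean count of at least 10, above 0 in at least 4 of 8 libraries, were fitted with edgeR 4.0.16 in R 4.3.3: TMM factors of 0.964 to 1.02 on the totals of these entries, trended dispersion, quasi-likelihood test, two-sided p-values with Benjamini-Hochberg adjustment over all 745 and a threshold of 0.05. The script was tested on simulated data. Standard errors are the size of the log2 fold change over the square root of F. Ratios used counts plus 0.5 and exact permutation tests (Python 3.11.15, SciPy 1.17.1). Wilson intervals cover counting error only, because reads copied by PCR are not separate molecules. Every member was named and described, and the 5 most similar entries were named by Pearson's r. Alternatives were median-ratio and upper-quartile scaling, DESeq2 1.42.0, no filter, a mean count of at least 100, known microRNAs alone, the library number as a block, and each library left out, keeping the 745 entries.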

Additional observations from a re-analysis of the deposited data

Results flagged for a closer look

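ASO library 4 stood apart from the other ASO libraries in miR-454-3p, at 515 CPM, and in the summed 3p level, at 560 CPM. Its gap to the nearest ASO library was 0.896 and 0.941 of the group's whole range, above Dixon's 95% critical value for 4 libraries. The sum consists mostly of miR-454-3p, so these are not separate results. They were 2 of 16 groups of 4 libraries looked at, and chance flags about 1 in 20. Without this library the log2 fold change of miR-454-3p was 0.55.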

How the results depend on the processing

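The number of entries called higher with ASO, 0 in edgeR, was 9 with DESeq2, 1 with a mean count of at least 100, 1 with known microRNAs alone, and 0 to 3 with 1 library left out (1 without control library 1 or 3, 3 without control library 4). The number called lower, 1 in edgeR, was 14 with DESeq2, 0 with no filter, 4 with a mean count of at least 100, 3 with known microRNAs alone, 0 with the replicate block, and 0 to 2 with 1 library left out (0 without control library 2, 2 without ASO library 1 or 4 or control library 4). Of the members, 1 was called higher with DESeq2, miR-454-3p, and 0 in each other alternative. Over the alternatives the log2 fold change ran from 0.39 to 0.62 for miR-454-3p, from −0.26 to −0.10 for miR-130b-5p, from −0.24 to −0.12 for miR-301a-5p, from 0.047 to 0.14 for miR-301b-3p and from 0.031 to 0.14 for miR-130a-3p, with no reversal. miR-148b-3p reversed to −0.034 with upper-quartile scaling, −0.012 with known microRNAs alone, −0.062 without ASO library 1 and −0.0037 without control library 3 (up to 0.077 without ASO library 4). The cause was not tested. The difference in log2 ratio ran from 0.543 to 0.880 for miR-454-3p to miR-301a-5p and from 0.148 to 0.392 for miR-301b-3p to miR-130b-5p with 1 library left out. The planned ratios of 3p to 5p arms and of the 3p arms within a locus were not run, since the entries analysed held 1 arm of each hairpin. Same-numbered libraries did not deviate together: their correlations were 0.0073, 0.034, 0.297 and −0.039 for numbers 1 to 4, and 1 of 4 ASO libraries correlated best with its own number. With the replicate block miR-454-3p had a log2 fold change of 0.54 (edgeR adjusted p = 0.509), and the exact sign-flip test of its ratio to miR-301a-5p can go no lower than p = 0.125.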

Other observations

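The deposited length of an entry differed from the RefSeq length for 2 of the 4 members with a RefSeq sequence. It was 25 against 23 bases for miR-454-3p and 22 against 21 for miR-130b-5p, while miR-301b-3p (23) and miR-301a-5p (22) had equal lengths. Among the 796 known entries matched by name, 47.1% had equal lengths and 10.6% were longer by 2 bases or more in the deposited table. What the deposited length describes is not given in the sources used here.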
